A study of Mus musculus with 8 samples.

Results

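Interferon response and immune GTPase genes were described in the inflamed middle colon of mice with and without Trim58. The set named 37 genes: the IFIT, OAS, ISG15 and other antiviral genes typical of type I interferon, the guanylate-binding protein (GBP) and immunity-related GTPase (IRG) genes typical of interferon gamma, 2 chemokines, 3 antigen-processing genes, 2 RNA sensors and 5 transcription factors. Each gene was read from the probe set that carried its symbol alone and had the highest mean over the 8 arrays. By this rule 35 of the 37 were measured, among 22180 genes tested. Gbp2 and Ifi44 had no probe set of their own, since the Gbp2 probe set is shared with Gbp2b. RNA came from 8 female mice of the C57BL/6-Trim58tm2313Arte strain, 9 weeks old. All of them drank 4% dextran sulfate sodium (DSS), which injures the colon epithelium, for 7 days and then plain water for 5 days, and the colon was sampled on day 12. Of these, 4 were Trim58+/+ (wild type) and the other 4 Trim58-/- (knockout), with 1 whole-transcript array per mouse, so genotypes are compared only after DSS, with no untreated mice beside them. The deletion was not restricted to a cell type in the labels, and tissue pieces of mixed cells were measured.

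Type I interferons signal through Ifnar1 and Ifnar2 to a complex with Stat2 and Irf9 that binds the interferon-stimulated response element, and this induces antiviral effectors such as the Ifit, Oas and Mx genes. Interferon gamma, made mainly by T cells, NK cells and other lymphocytes, signals through Ifngr1 and Ifngr2 to the gamma-activated site of promoters, and to Irf1. Its targets include the GBPs and IRGs, GTPases that attack the membranes around intracellular microbes, and the chemokines Cxcl9, Cxcl10 and Cxcl11, which attract T cells through Cxcr3. In the colon both arms are active in the epithelium and in infiltrating leukocytes, and most targets of one arm respond in part to the other. Trim58 belongs to the tripartite motif family of ubiquitin ligases.

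The promoters of the members were searched for the letters that the 2 arms read. Windows from 250 bases before to 50 bases after the gene start were taken from RefSeq (GRCm38.p6) and searched on both strands for a GAAA pair (GAAA, any 2 bases and GAAA again, the core of an interferon-stimulated response element) and for TTCNNNGAA, the core of a gamma-activated site. Matches could overlap each other. 31 of the 37 genes had a window. The GAAA pair was present in 17 of these 31 genes (54.8%), against 3.99% of all 27025 genes with a window. TTCNNNGAA was present in 11 of 31 (35.5%), against 9.55% of all. Of the gamma-type genes with a window (Gbp, Irgm, Igtp and Cxcl9, with the unmeasured Gbp2 among them), 7 of 8 held the GAAA pair and 4 of 8 held TTCNNNGAA. Of the type I-type genes (Ifit, Oas and Isg15), 4 of 7 held the GAAA pair and 1 of 7 held TTCNNNGAA. In the wider type I-type list, which adds other antiviral genes, 6 of 12 held the GAAA pair and 4 of 12 (33.3%) held TTCNNNGAA, near the 35.5% of all members with a window. The arms therefore did not divide cleanly: Ifit2 held TTCNNNGAA without the GAAA pair, and Gbp3 and Irgm1 held the GAAA pair alone. A match describes the letters and is no evidence of binding. 5 promoters are shown, each as the 170 bases before the start, with matches to either motif in capitals, as examples of genes with both motifs (Gbp5, Igtp and Irgm2) and with the GAAA pair alone (Isg15 and Ifit1). They were chosen after the matches were seen. They lie at chr3:142496764-142496933 (plus strand, Gbp5), chr11:58199386-58199555 (plus, Igtp), chr11:58214807-58214976 (plus, Irgm2), chr4:156200819-156200988 (minus, Isg15) and chr19:34640719-34640888 (plus, Ifit1).
Gbp5: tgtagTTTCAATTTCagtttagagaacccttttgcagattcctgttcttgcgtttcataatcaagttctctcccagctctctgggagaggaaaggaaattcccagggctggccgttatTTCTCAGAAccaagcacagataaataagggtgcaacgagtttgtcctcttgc
Igtp: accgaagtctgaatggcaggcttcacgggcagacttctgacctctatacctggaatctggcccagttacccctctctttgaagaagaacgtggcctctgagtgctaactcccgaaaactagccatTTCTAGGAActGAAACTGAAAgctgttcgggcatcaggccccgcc
Irgm2: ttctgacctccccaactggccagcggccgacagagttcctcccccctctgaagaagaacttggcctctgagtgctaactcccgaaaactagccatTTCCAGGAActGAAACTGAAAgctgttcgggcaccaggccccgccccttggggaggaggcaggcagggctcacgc
Isg15: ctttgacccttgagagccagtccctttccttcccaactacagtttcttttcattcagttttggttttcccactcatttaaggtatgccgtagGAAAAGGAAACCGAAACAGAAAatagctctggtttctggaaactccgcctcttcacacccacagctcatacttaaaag
Ifit1: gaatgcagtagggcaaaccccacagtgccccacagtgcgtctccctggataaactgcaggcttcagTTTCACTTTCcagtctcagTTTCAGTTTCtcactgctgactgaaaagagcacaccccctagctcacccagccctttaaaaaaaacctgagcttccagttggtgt
Igtp and Irgm2 are neighbours on chromosome 11 and carried the same arrangement. In both, the first base of TTCNNNGAA stood 11 bases ahead of the first base of the GAAA pair, at 45 and 34 bases before the start in Igtp and at 75 and 64 in Irgm2. With the stretches shifted by 30 bases, 108 of 140 bases (77.1%) were identical and the longest identical run was 38 bases. Isg15 held 3 overlapping matches to the GAAA pair, beginning 78, 72 and 66 bases before its start. No match to either motif was found in the windows of Cxcl9, Irf7, Irf9, Oasl1, Oasl2, Psmb9 and Tap1, nor in that of the unmeasured Ifi44, which says only that these letters are not in those windows.

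The arrays had medians of 5.73 to 5.83 (log2), and their number, 4 per genotype, limits the precision. Trim58 itself did not separate the genotypes, with 5.03 to 5.22 in wild type, 4.82 to 5.37 in knockout and a difference of -0.07 ± 0.12 (SE; limma adjusted p = 0.839). An exact permutation test, two-sided, gave p = 0.6. No source used here says where its probes lie relative to the deletion, so this probe set does not check the labels. Knockout replicates 1, 2 and 4 stood apart from knockout replicate 3 and from the wild type arrays in pancreatic enzyme genes. The mean of 8 pancreatic acinar enzyme genes was 11.12, 12.09 and 11.78 in knockout replicates 1, 2 and 4, but only 5.81 in knockout replicate 3, below the wild type range of 6.01 to 6.17. Colon epithelium markers such as Epcam and Krt20 were bright in all arrays of this colon tissue (list mean 11.48 to 11.67 in wild type and 11.36 to 11.60 in knockout).

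No member passed the adjusted threshold of 0.05 in limma, either higher or lower in the knockout, against 0.392% and 0.185% of all genes tested. At an unadjusted p under 0.05, 6 of 35 members (17.1%) were higher in the knockout, namely Cxcl9, Cxcl10, Gbp3, Gbp5, Igtp and Irf8, against 6.22% of all genes. That count was 13 without wild type replicate 1, and 3 without wild type replicate 2, knockout replicate 2 or knockout replicate 3. Oasl1 alone (2.86% of the members) was lower, against 8.10% of all genes. The median difference (knockout minus wild type, log2) was 0.14 over the members and -0.01 over all genes, with 21 members above 0 and 14 below. Member differences ranged from -0.32 for Oasl1 to 1.82 for Cxcl9. All 4 knockout arrays lay above all 4 wild type arrays for Gbp5 alone (2.86%, against 3.79% of all genes), and for no member did all lie below (5.02% of all genes). Each difference below is knockout minus wild type on the log2 scale, with ± its standard error from limma. Wild type replicate 1 was the highest wild type array in 30 of 35 members, and knockout replicate 3 was the highest knockout array in 27. Knockout replicates 1 and 4 were the lowest of their group in 20 and 13 members.

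**Figure D1:**
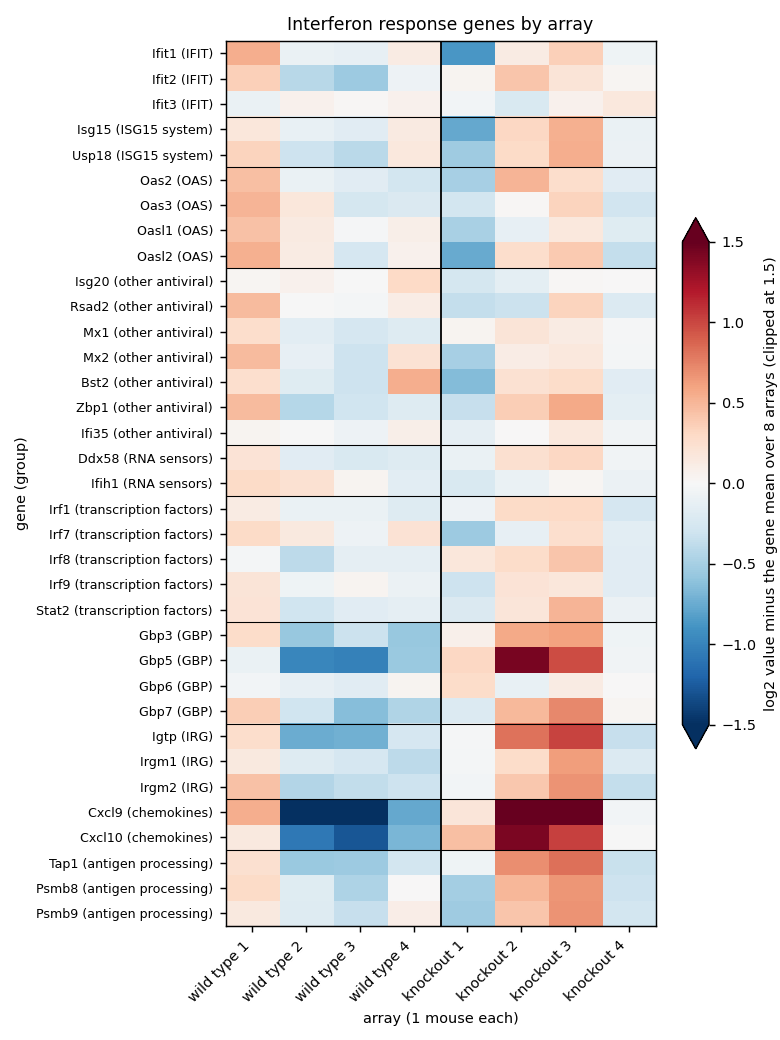
Each row is 1 of the 35 measured genes and each column 1 array; colour is the log2 value minus the gene's mean over the 8 arrays, clipped at 1.5. Wild type replicate 1 is high in most rows, and the contrast between genotypes is strongest in the rows of Cxcl9, Cxcl10 and Gbp5.

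**Figure D2:**
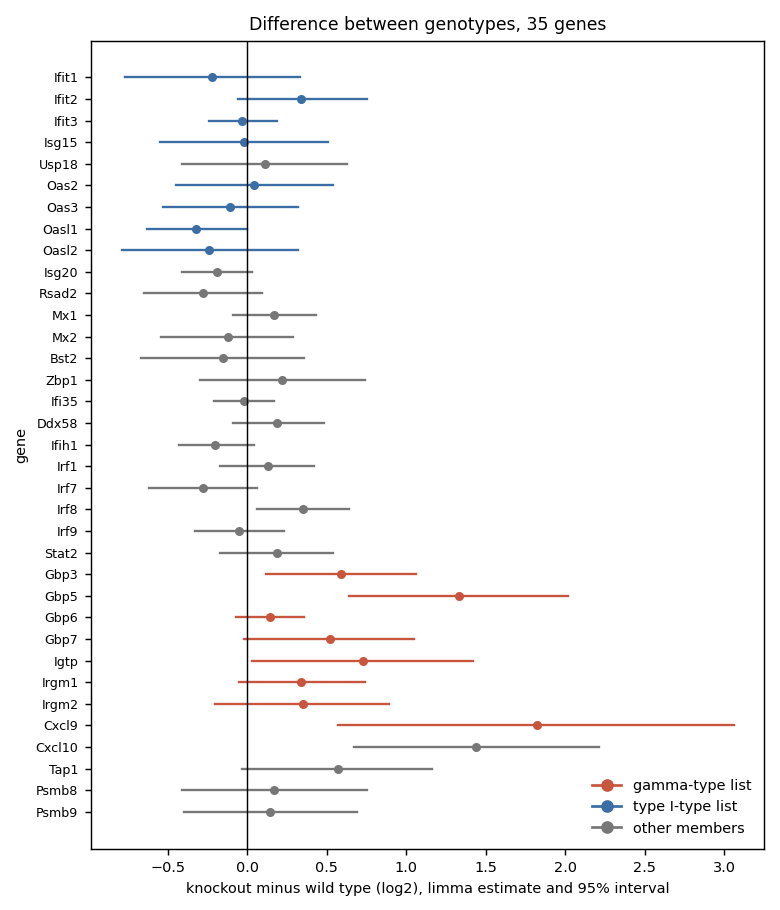
Points are limma estimates of knockout minus wild type (log2) for the 35 genes and lines their 95% intervals. The gamma-type estimates (red) all lie above 0, from 0.14 to 1.82, while 6 of the 8 type I-type estimates (blue) lie below 0.

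The 2 chemokine genes had the largest differences. Cxcl9, an interferon gamma-induced ligand of Cxcr3, read 9.04, 6.62, 6.97 and 7.73 in the wild type arrays and 8.68, 10.22, 10.27 and 8.46 in the knockout arrays. Wild type replicate 1 lay above knockout replicates 1 and 4, so the groups overlapped, while the other wild type arrays lay below every knockout array. The difference was 1.82 ± 0.56 (SE; 95% interval 0.57 to 3.06), or 3.52-fold (limma adjusted p = 0.166). Cxcl10, a Cxcr3 ligand that responds to both arms, read 7.16, 5.94, 5.73 and 6.32 in wild type and 7.46, 8.42, 8.04 and 7.00 in knockout. Only wild type replicate 1 and knockout replicate 4 crossed. The difference was 1.44 ± 0.35 (95% interval 0.67 to 2.21), or 2.71-fold (limma adjusted p = 0.0982). Without wild type replicate 1 the Cxcl10 difference was 1.73 and passed (adjusted p = 0.0432), whereas Cxcl9 at 2.30 did not (adjusted p = 0.0788).

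The 4 measured GBP genes all had differences above 0, with a median of 0.55. Gbp5, a GTPase that promotes inflammasome assembly, read 6.33, 5.45, 5.42 and 5.87 in wild type and 6.74, 7.86, 7.41 and 6.38 in knockout. The groups did not overlap, although wild type replicate 1 and knockout replicate 4 nearly met. The difference was 1.33 ± 0.31 (95% interval 0.64 to 2.02), or 2.51-fold, with the smallest adjusted p of the members (limma adjusted p = 0.0908). Gbp3 read 7.27, 6.43, 6.67 and 6.43 in wild type and 7.07, 7.56, 7.60 and 6.93 in knockout, a difference of 0.59 ± 0.21 (limma adjusted p = 0.228). Gbp7, which has been linked to control of intracellular bacteria, read 8.97, 8.31, 7.96 and 8.15 against 8.40, 9.09, 9.32 and 8.63, a difference of 0.52 ± 0.24 (limma adjusted p = 0.368). In both genes wild type replicate 1 alone lay within the knockout range. Gbp6 had a dim signal, 2.75 to 2.96 in wild type and 2.81 to 3.19 in knockout, and its difference of 0.14 ± 0.10 (limma adjusted p = 0.555) is that of a probe set near the bottom of the scale. Gbp3, Gbp5 and Gbp7 lie together on chromosome 3 and Gbp6 on chromosome 5.

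The 3 IRG genes had differences of 0.34 to 0.73. Igtp (Irgm3), which guards the membranes of the host against other IRG proteins, read 7.66, 6.66, 6.68 and 7.15 in wild type and 7.38, 8.21, 8.41 and 7.06 in knockout. Knockout replicates 2 and 3 were above every wild type array, and knockout replicates 1 and 4 lay within the wild type range. The difference was 0.73 ± 0.31 (95% interval 0.03 to 1.42), or 1.66-fold (limma adjusted p = 0.328). It was 1.28 with the pancreatic marker mean as a covariate, which did not pass, and 1.37 with knockout replicate 3 as the one knockout array. Both settings rest largely on knockout replicate 3, since the pancreatic mean was high in the other knockout arrays and low in all wild type arrays. Irgm1, which regulates autophagy, read 7.23, 6.89, 6.83 and 6.69 against 7.05, 7.36, 7.71 and 6.88, a difference of 0.34 ± 0.18 (limma adjusted p = 0.426). Irgm2, another regulatory IRG, read 8.77, 7.89, 7.96 and 8.02 against 8.29, 8.74, 9.01 and 7.97, a difference of 0.35 ± 0.25 (limma adjusted p = 0.582). For Irgm2 wild type replicate 1 was above 3 of the 4 knockout arrays. Both rested in part on knockout replicate 3: without it the Irgm1 difference was 0.19 and the Irgm2 difference 0.18, and with it as the one knockout array they were 0.80 and 0.86.

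**Figure D3:**
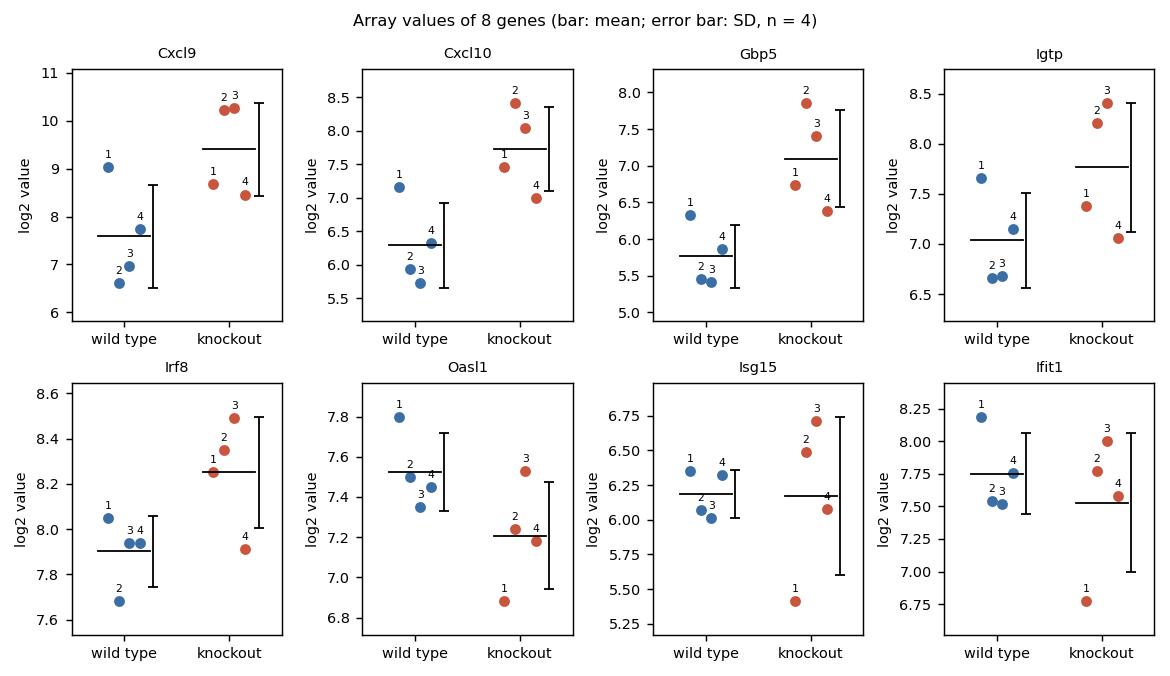
Points are log2 values of the numbered arrays for 8 genes; horizontal bars are group means and error bars the SD (n = 4 each), and each panel has its own vertical axis, which does not start at 0. The groups are apart for Gbp5, nearly apart for Cxcl10, and mixed for Isg15 and Ifit1.

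The type I-type genes had differences on both sides of 0. Ifit1, which binds foreign RNA ends, read 8.19, 7.54, 7.52 and 7.76 in wild type and 6.77, 7.77, 8.0 and 7.58 in knockout, a difference of -0.22 ± 0.25 (95% interval -0.77 to 0.33). Ifit2 had a difference of 0.34 ± 0.18 and Ifit3 one of -0.03 ± 0.10. Isg15, the ubiquitin-like protein that is conjugated to targets in infected cells, read 6.35, 6.07, 6.01 and 6.32 against 5.41, 6.49, 6.71 and 6.08, a difference of -0.02 ± 0.24 (95% interval -0.55 to 0.51). In Ifit1 and Isg15 knockout replicate 1 was the lowest of all 8 arrays, and in Isg15 knockout replicates 2 and 3 were the highest. Usp18, which removes Isg15 from its targets, had a difference of 0.11 ± 0.23.

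Among the OAS genes, whose enzymes make the second messenger that activates RNase L, Oas2 and Oas3 had differences of 0.04 ± 0.22 and -0.11 ± 0.19. Oasl1, a relative without synthetase activity that restrains the translation of Irf7, read 7.80, 7.50, 7.35 and 7.45 in wild type and 6.88, 7.24, 7.53 and 7.18 in knockout. Knockout replicate 3 lay within the wild type range and the other 3 knockout arrays lay below every wild type array. The difference was -0.32 ± 0.14 (95% interval -0.63 to -0.00; limma adjusted p = 0.344), and it was 0.00 with knockout replicate 3 as the one knockout array. Oasl2 had a difference of -0.24 ± 0.25.

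The other antiviral effectors were likewise mixed, with 2 of 7 above 0 and a median of -0.12. Rsad2 (viperin), which makes a chain-terminating nucleotide, read 7.39, 6.91, 6.88 and 7.03 in wild type and 6.56, 6.59, 7.25 and 6.71 in knockout, a difference of -0.28 ± 0.17 (limma adjusted p = 0.505). Knockout replicate 3 was within the wild type range and the other knockout arrays were below it. The exonuclease Isg20 had a difference of -0.19 ± 0.10, the viral tether Bst2 one of -0.15 ± 0.23 and the dynamin-like GTPases Mx1 and Mx2 differences of 0.17 ± 0.12 and -0.12 ± 0.19. Zbp1, a sensor of Z-form nucleic acid that can start necroptosis, had a difference of 0.22 ± 0.23, and Ifi35 one of -0.02 ± 0.08. The cytosolic RNA sensors Ddx58 (RIG-I) and Ifih1 (MDA5) had differences of 0.19 ± 0.13 and -0.20 ± 0.11. Adjusted p-values of the effectors and sensors named in this paragraph lay between 0.422 and 0.951 in limma.

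The contrast between the 2 arms was described by list means per array, without a test, since the lists were drawn up with results of these arrays known. The mean of the 8 gamma-type genes (Gbp3, Gbp5, Gbp6, Gbp7, Igtp, Irgm1, Irgm2 and Cxcl9) was 7.27, 6.38, 6.40 and 6.62 in wild type and 7.10, 7.73, 7.84 and 6.90 in knockout. The group means were 6.67 ± 0.42 and 7.40 ± 0.46 (SD, n = 4 each), a difference of 0.73, and wild type replicate 1 lay above knockout replicates 1 and 4. All 8 genes had differences above 0, as did 10229 of the 22180 genes tested, and 4 of 8 were higher at an unadjusted p under 0.05, against 6.22% of all genes. The mean of the 8 type I-type genes (Ifit1, Ifit2, Ifit3, Isg15, Oas2, Oas3, Oasl1 and Oasl2) was 7.33, 6.94, 6.78 and 6.95 in wild type and 6.51, 7.13, 7.25 and 6.85 in knockout. These group means were 7.00 ± 0.24 and 6.93 ± 0.33, a difference of -0.07 with overlapping groups, and 2 genes were above 0 and 6 below. The sign of the type I-type difference turned to 0.04 without wild type replicate 1 and to 0.08 without knockout replicate 1.

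Within each array, the gamma-type mean minus the type I-type mean was -0.06, -0.56, -0.37 and -0.33 in wild type and 0.59, 0.60, 0.59 and 0.06 in knockout. These values did not overlap between the genotypes, with means of -0.33 ± 0.20 and 0.46 ± 0.27 (SD, n = 4 each) and a difference of 0.79. The same was true with a wider type I-type list of 16 measured genes, where the difference was 0.78. Left without Cxcl9, the gamma-type list gave 0.64, and without Igtp it gave 0.79. Leaving out any 1 array gave 0.72 to 0.93. Since array signals of different genes have no shared scale, only the shift of this value between arrays has a meaning, not its sign in an array.

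**Figure D4:**
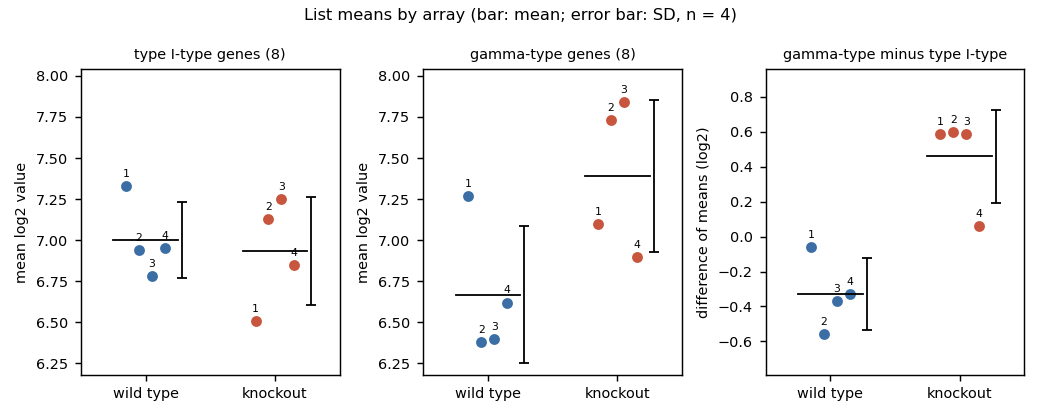
Points are the numbered arrays, horizontal bars group means and error bars the SD (n = 4 each); the panels show the mean log2 value of the type I-type genes, that of the gamma-type genes, and the second minus the first, on axes that do not start at 0. Both list means overlap between genotypes, while their difference runs from -0.56 to -0.06 in wild type and from 0.06 to 0.60 in knockout.

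Of the transcription factors, Irf8, which is needed for monocyte and dendritic cell lineages and is induced by interferon gamma, read 8.05, 7.68, 7.94 and 7.94 in wild type and 8.25, 8.35, 8.49 and 7.91 in knockout. Knockout replicate 4 lay within the wild type range and the other 3 knockout arrays lay above it. The difference was 0.35 ± 0.13 (95% interval 0.06 to 0.64; limma adjusted p = 0.244). A further, dimmer probe set of Irf8 had a difference of 0.11. With the mean of its probe sets, Irf8 was not among the members higher at an unadjusted p under 0.05. Irf7, which amplifies type I interferon production, read 8.28, 8.14, 7.92 and 8.21 against 7.45, 7.87, 8.25 and 7.84, a difference of -0.28 ± 0.15 (limma adjusted p = 0.448). Irf1 had a difference of 0.13 ± 0.13, and Stat2 and Irf9, partners in the type I complex, had differences of 0.19 ± 0.16 and -0.05 ± 0.13. The largest difference of the antigen-processing genes was that of Tap1, a subunit of the peptide transporter, which read 8.85, 8.05, 8.06 and 8.34 against 8.55, 9.31, 9.44 and 8.28. Knockout replicates 2 and 3 were above every wild type array, and the difference was 0.57 ± 0.27 (limma adjusted p = 0.373). The immunoproteasome subunits Psmb8 and Psmb9, which lie beside Tap1 on chromosome 17, had differences of 0.17 ± 0.26 and 0.14 ± 0.24.

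Of 103 other genes of the interferon pathway, 88 were measured and none passed the adjusted threshold in limma. At an unadjusted p under 0.05, 20 (22.7%) were higher in the knockout, against 6.22% of all genes, and 6 (6.82%) were lower, against 8.10%. The median difference was 0.10. All knockout arrays lay above all wild type arrays for 8 genes (9.09%, against 3.79% of all genes) and below for 2 (2.27%, against 5.02%). The interferon genes themselves had small differences. Ifng read 5.21, 4.95, 4.97 and 5.06 in wild type and 4.96, 5.57, 5.29 and 4.90 in knockout, a dim signal with overlapping groups and a difference of 0.13. Ifng was highest in knockout replicates 2 and 3 and wild type replicate 1, as was Cxcl9. Knockout replicate 1 lay within the wild type Ifng range and knockout replicate 4 below it. The Cxcl9 values of knockout replicates 1 and 4 lay above those of wild type replicates 2 to 4. How Ifng and Cxcl9 go together was not tested. Without knockout replicate 2 the Ifng difference was 0.00. Ifnb1, dimmer still than Ifng, read 3.69 to 4.10 in wild type replicates 2 to 4 and 3.44 in replicate 1. The knockout arrays read 3.27 to 3.69 for Ifnb1, a difference of -0.35 (limma adjusted p = 0.308). The other 7 measured ligand genes (Ifna1, Ifna2, Ifna4, Ifne, Ifnk, Ifnl2 and Ifnl3) had differences between -0.13 and 0.11.

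Of the receptors, Ifnar1 read 8.76 to 8.97 in wild type and 9.05 to 9.15 in knockout, without overlap and with a difference of 0.23 (limma adjusted p = 0.193). Ifnar2 had a difference of 0.45 (adjusted p = 0.2) with overlapping groups. The interferon gamma receptor chains Ifngr1 and Ifngr2 had differences of -0.23 and -0.06, and the lambda receptor chains Ifnlr1 and Il10rb -0.16 and -0.01. The kinases Jak1 and Jak2 had differences of 0.13 and 0.17, both without overlap (limma adjusted p = 0.451 and 0.338). Among inhibitors of the pathway, Socs3 had a difference of 0.74 (limma adjusted p = 0.164) and the phosphatase Ptpn6 one of 0.54 (adjusted p = 0.141). These 2 had the smallest p of the 6 measured inhibitors. Over the 6 the median difference was 0.13, with 4 above 0 and 2 below. Il18, an epithelial cytokine that drives interferon gamma production, had a difference of -0.39 and lay below the wild type range in all 4 knockout arrays (limma adjusted p = 0.137), and Il12a had one of 0.23. The adaptor Mavs and the ligase Trim25, which relay RIG-I signals, had differences of -0.21 and -0.18.

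Further induced genes were read from a gamma list and a type I list. Of 13 measured genes induced mainly by interferon gamma, 12 had differences above 0, 7 were higher at an unadjusted p under 0.05, and the median was 0.64. Of 24 measured genes induced mainly by type I interferon, 16 were above 0, 8 were higher and 3 lower at that threshold, and the median was 0.14. Over all genes 6.22% were higher and 8.10% lower, with a median of -0.01. Cxcl11, the third ligand of Cxcr3, read 5.61, 5.36, 5.16 and 5.49 in wild type and 5.92, 6.76, 6.20 and 5.91 in knockout, without overlap, a difference of 0.80 (limma adjusted p = 0.086). Gbp9 had a difference of 0.87 (adjusted p = 0.0951), and it passed at 1.09 without wild type replicate 1 (adjusted p = 0.0161). Ifi204, a DNA sensor of the p200 family found in myeloid cells, read 4.52, 4.03, 3.75 and 4.83 against 5.26, 5.67, 5.15 and 5.15, without overlap. Its difference was 1.03 (limma adjusted p = 0.0739), and it passed at 1.08 with array weights (adjusted p = 0.0347). Slfn1 had a difference of 0.71 (adjusted p = 0.0968). Ifi204 and Slfn1 are among the 8 genes of the type I list that were higher. The 3 lower ones were Oas1g (-0.57), Ifi27 (-0.38, without overlap) and Cmpk2 (-0.31). The antigen presentation genes Erap1 and Psmb10 had differences of 0.20 and 0.19.

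Marker lists of other cell types were read beside these genes, and members of the neutrophil list alone passed the adjusted threshold. In bulk tissue, fewer cells of a type and less RNA per cell cannot be told apart. All 10 neutrophil markers were higher in the knockout without overlap, as were 3.79% of all genes. Of them 9 passed the adjusted threshold in limma, against 0.392% of all genes. The list mean was 5.23 to 5.74 in wild type and 7.24 to 8.29 in knockout, a difference of 2.22. The B cell list mean (4 of 5 markers measured) was 6.37 to 7.71 in wild type and 7.68 to 8.35 in knockout, a difference of 0.99, with no marker past the adjusted threshold. T and NK cell markers (11 of 12 measured) had means of 5.47 to 5.97 and 5.72 to 6.19, a difference of 0.25. Within that list the granzymes Gzma and Gzmb had differences of 1.17 and 1.09 (limma adjusted p = 0.0613 and 0.0638), both without overlap. The other measured markers of the list had differences from -0.11 (Cd3e) to 0.25 (Cd4). Among them were Prf1 at 0.07, Nkg7 at 0.08 and Ncr1 at -0.03. Monocyte and macrophage markers (10 measured) had means of 7.78 to 8.88 and 8.27 to 8.76. Plasmacytoid dendritic cell markers (7 measured) had 7.07 to 7.57 and 7.28 to 7.63, and conventional dendritic cell markers (5 of 6) 6.55 to 6.75 and 6.54 to 6.70. The plasmacytoid markers did not move together, with 4 differences above 0 and 3 below, from -0.44 (Siglech) to 0.97 (Spib). Markers of the posterior gut (6 Hox genes) had means of 6.66 to 6.94 and 6.18 to 6.82, a difference of -0.34. All 6 had differences below 0, as did 11951 of the 22180 genes tested. Of the 6, 4 were lower at an unadjusted p under 0.05 in limma, against 8.10% of all genes.

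Of the marker lists, only the neutrophil and the pancreatic means were fitted as covariates. The gamma-type difference changed sign with the neutrophil mean. With the neutrophil marker mean as a covariate the gamma-type difference was -1.47, the type I-type difference -1.21 and the difference between them -0.26. The neutrophil means do not overlap between the genotypes, so genotype and neutrophil signal cannot be told apart in these arrays. With the pancreatic marker mean as a covariate the gamma-type difference was 1.11 and the type I-type difference 0.19. That fit rests largely on knockout replicate 3, the one knockout array without a high pancreatic mean, and is not independent of the next values. Knockout replicate 3, which lacks the pancreatic signal, gave a gamma-type difference of 1.18 and a type I-type difference of 0.25 as the one knockout array, and without it they were 0.58 and -0.17. Wild type replicate 1 had the highest neutrophil (5.74), B cell (7.71), T and NK cell (5.97) and plasmacytoid dendritic cell (7.57) means of the wild type arrays. Wild type replicate 4 was close in the neutrophil (5.67) and T and NK cell (5.93) means. It was the highest in the monocyte and macrophage (8.88, against 8.50 in replicate 1) and conventional dendritic cell (6.75, against 6.63) means. Wild type replicate 1 was the highest wild type array in 7 of the 8 gamma-type genes and in 7 of the 8 type I-type genes. The part of cell content in these differences was not tested beyond these values.

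Igtp and Irgm2 lie near Trim58 on chromosome 11, so the genes around them were read in chromosome order. In the RefSeq annotation (GRCm38.p6) 30 genes lie between Igtp and Trim58, and 19 of them were tested, Irgm2 and 9 olfactory receptors among them. Their differences had a median of 0.03 and ranged from -0.38 (Olfr325) to 0.45 (2210407C18Rik). None had an unadjusted p under 0.05 in the higher direction and 2 did in the lower, against 6.22% and 8.10% of all genes, and none passed the adjusted threshold in limma. Gm12250 (also called Irgb10, an IRG itself), next to Igtp on the side away from Trim58, read 7.42, 6.36, 6.22 and 6.32 in wild type and 7.05, 8.02, 7.98 and 6.70 in knockout, a difference of 0.85 (limma adjusted p = 0.284). It is named here after its value was seen. Of the 38 neighbours other than Trim58, Igtp and Irgm2, Gm12250 was the only gene with an unadjusted p under 0.05 in the higher direction, 4 had one in the lower, to be read against the same shares over all genes, and the median was -0.02.

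**Figure D5:**
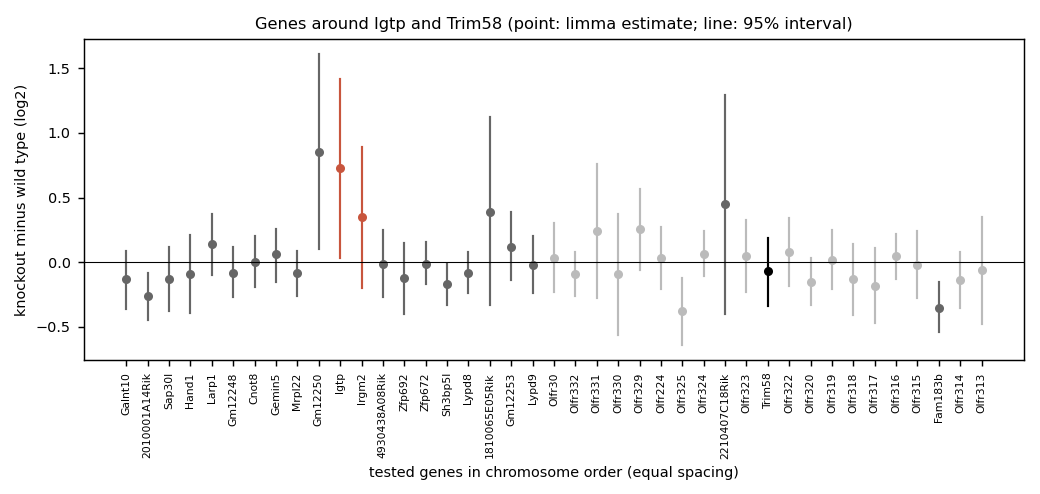
Points are limma estimates of knockout minus wild type (log2) with 95% intervals for the tested genes around Igtp and Trim58, in chromosome order with equal spacing; Igtp and Irgm2 are red, Trim58 black and olfactory receptors light grey. Gm12250 (0.85) and Igtp (0.73) are the highest points, and the genes between Irgm2 and Trim58 lie between -0.38 and 0.45.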

How the data were processed

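One whole-transcript Affymetrix array was hybridised for each of 8 mice, from 200 ng of colon RNA labelled with biotin, per the labels' protocols. The authors deposited log2 values made with RMA in Affymetrix Expression Console 1.4, per the submitters' processing notes. RMA brings arrays to a common distribution and compresses differences of dim and very bright genes. No source used here gives scan dates, batches or the array's genome build. The labels name separate mice. Arrays give no counts, so no sequencing depth applies.

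Of 41345 probe sets, 23521 carried 1 gene symbol, 1814 several and 16010 none. 23328 of the first were matched by Entrez identifier to the RefSeq table (GRCm38.p6). Per gene the probe set with the highest mean was kept, leaving 22180 genes, with no filter on dim genes. Ifi35 and Irf8 had a further probe set each, with differences of 0.04 and 0.11. The knockout arrays were set against the wild type arrays by lmFit and eBayes of limma 3.58.1 (R 4.3.3). The fit had no covariate, and p-values were adjusted by Benjamini-Hochberg over all 22180 genes. Trim58 was also tested by exact permutation over 70 assignments. The limma step was tested on simulated data.

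The members, the lists and the tests were chosen with earlier results of these data known. The rule named all members, Trim58, interferon ligands and receptors and, per further role, the 2 genes with the smallest p. Oas1g, Ifi27 and Cmpk2 were named beyond this rule, after their values were seen. The alternatives were a variance trend, array weights, repeated quantile normalization, equal medians, no dim genes, other uses of the probe sets, a replicate block, marker covariates, knockout replicate 3 alone and leaving out each array.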

Additional observations from a re-analysis of the deposited data

Results flagged for a closer look

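Within 126 groups of 4 arrays, 5 held an array far from the other 3, by Dixon's criterion on its gap to the nearest of them. Chance flags about 1 in 20 groups. In 4 of the 5 the array was wild type replicate 1 at the high end: Irgm2 at 8.77 against 7.89 to 8.02, Ddx58 at 8.0 against 7.57 to 7.63, Gbp9 at 7.51 against 6.56 to 6.72, and Gm12250 at 7.42 against 6.22 to 6.36. The other was knockout replicate 4, whose gamma-type minus type I-type mean was 0.06 against 0.59 to 0.60 in the other knockout arrays. The same array lay in the lowest place of its group for 6 of the 8 gamma-type genes.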

How the results depend on the processing

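The number of arrays, 4 per genotype, limits every value. Mean-variance trend with robust variance changes only the variances, so it could turn no difference. Equal medians turned none. The dim genes Mx2, Gbp6, Trim58, Ifnb1, Ifng, Il12a and Ifi204 were not tested without the dimmest genes. Replicate numbers share no animal: deviations of same-numbered arrays correlated at -0.14, -0.16, 0.04 and 0.05. With the replicate block 64 genes passed over all genes, against 128 without, and no member did (lowest adjusted p = 0.179, Gbp5). The count of members past the adjusted threshold was 0 in all settings but 1, where it was 1 (without wild type replicate 1). Leaving out 1 array gave 0 to 1. The count higher at an unadjusted p under 0.05 (6) was 11 with the pancreatic covariate, 0 with the neutrophil covariate, 14 with knockout replicate 3 as the one knockout array, and 3 to 13 leaving out 1 array. The count lower (1) was 2 with array weights, 14 with the neutrophil covariate, 0 to 3 leaving out 1 array (3 without knockout replicate 3, and 0 without wild type replicate 1 or 2 or knockout replicate 1, 2 or 4), and 0 with all probe sets, the replicate block, the pancreatic covariate or knockout replicate 3. The type I-type difference was -1.21 with the neutrophil covariate and 0.25 with knockout replicate 3. The gamma-type difference was -1.47 and 1.18, and the difference between them -0.26 with the neutrophil covariate. Turned differences were, with the neutrophil covariate, Ifit2 -1.12, Ifit3 0.63, Usp18 -1.62, Oas2 -1.70, Mx1 -0.53, Zbp1 -1.52, Ddx58 -0.68, Irf1 -0.93, Irf8 -0.50, Stat2 -0.78, Gbp3 -0.92, Gbp5 -2.0, Gbp7 -1.19, Igtp -2.23, Irgm1 -0.74, Irgm2 -1.62, Cxcl9 -3.32, Cxcl10 -2.09, Tap1 -1.95, Psmb8 -2.15, Psmb9 -1.87, Ifng -1.24, Ifnar1 -0.05, Ifnar2 -0.50, Ifngr1 0.10, Jak2 -0.01, Jak1 -0.04, Ptpn6 -0.61, Socs3 -1.55, Il18 0.07, Il12a -0.70, Ifi204 -0.71, Slfn1 -0.91, Cxcl11 -1.05, Gbp9 -0.74, Psmb10 -0.64 and Gm12250 -2.27. With the pancreatic covariate they were Ifit1 0.14, Ifit3 0.05, Isg15 0.40, Oas3 0.24, Oasl2 0.16, Rsad2 0.16, Mx2 0.05, Bst2 0.12, Ifi35 0.12, Irf7 0.05, Irf9 0.10 and Trim25 0.02. With knockout replicate 3 as the one knockout array they were Ifit1 0.25, Ifit3 0.05, Isg15 0.52, Oas3 0.28, Oasl1 0.00, Oasl2 0.27, Rsad2 0.20, Mx2 0.10, Bst2 0.20, Ifi35 0.14, Irf7 0.11, Irf9 0.15, Ifngr2 0.00 and Trim25 0.05. Array weights turned Isg15 0.02 and Il10rb 0.01, the mean of probe sets Ifi35 0.01, and repeated quantile normalization Il10rb 0.02. Leaving out 1 array turned the sign within the ranges Ifit1 -0.38 to 0.04, Ifit3 -0.08 to 0.05, Isg15 -0.20 to 0.24, Usp18 -0.05 to 0.31, Oas2 -0.12 to 0.22, Oas3 -0.23 to 0.05, Mx2 -0.25 to 0.02, Bst2 -0.28 to 0.04, Ifi35 -0.07 to 0.03, Irf9 -0.12 to 0.05, Psmb8 -0.02 to 0.37, Psmb9 -0.06 to 0.34, Trim58 -0.18 to 0.00 and Il10rb -0.05 to 0.05. The cause was not tested.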
